A study of Mus musculus with 6 samples.

Results

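The Hippo pathway genes and the genes that its effectors YAP and TAZ are known to switch on were followed in femoral bone of mice that ran on a wheel and of mice that did not. They are 38 genes chosen by symbol, 23 components of the pathway and 15 transcriptional targets, out of 55484 genes in the deposited tables. All 38 were found, and 34 of them are among the 15508 genes that the authors tested. The CCN genes, which are also YAP and TAZ targets, enter below only beside the members. The wheel running group (ND/WCR) held 3 male wild-type C57BL/6 mice housed singly with free access to a running wheel, and the sedentary group (ND/SED) held 3 male wild-type C57BL/6 mice housed singly without one. All 6 mice ate normal chow, were caged alone for 6 weeks from an age of 6 weeks, and the femur was taken at 12 weeks. The title of the study names osteocytes, glucose metabolism and CCN1, and the comparison addresses which femoral transcripts differ after voluntary running. Polyadenylated RNA was sequenced, and each gene has in either group a single FPKM, a fragment count scaled to transcript length and library depth, with the lower and upper bound of the authors' interval, so no spread between mice can be given.

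In the Hippo pathway the MST kinases, STK3 and STK4, bind the adaptor SAV1 and activate the LATS kinases, which work with MOB1 and phosphorylate the coactivators YAP and TAZ. Phosphorylated YAP and TAZ are held in the cytoplasm or degraded; otherwise they enter the nucleus, bind TEAD transcription factors and raise the transcription of their targets. Stretch, a stiff matrix and actin tension favour nuclear YAP and TAZ, and in bone both proteins act in osteoblasts and osteocytes. The pathway is controlled mainly by phosphorylation and location, which transcript levels do not measure.

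Among the members, Ankrd1 alone passed the authors' test, and it was higher in the running mice. Most of the other tested members had slightly higher values in running mice as well, without passing the test. A gene is called here when q in the authors' deposited table, adjusted over all tested genes, lies under 0.05. By that rule 1 of 34 tested members was called, against 0.941% of all tested genes, and 1 was called higher, against 0.445% of all tested genes. At an unadjusted p under 0.05 in the authors' deposited table there were 3 members, against 5.65% of all tested genes, and all 3 were higher in running mice, against 3.42% of all tested genes. The intervals of the running and sedentary groups overlapped for every one of the 34 tested members, and they lay apart for 0.574% of all tested genes. Unless stated otherwise, a log2 fold below divides the running by the sedentary FPKM after adding 0.1 to each, so changes of low genes come out too small.

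**Figure D1:**
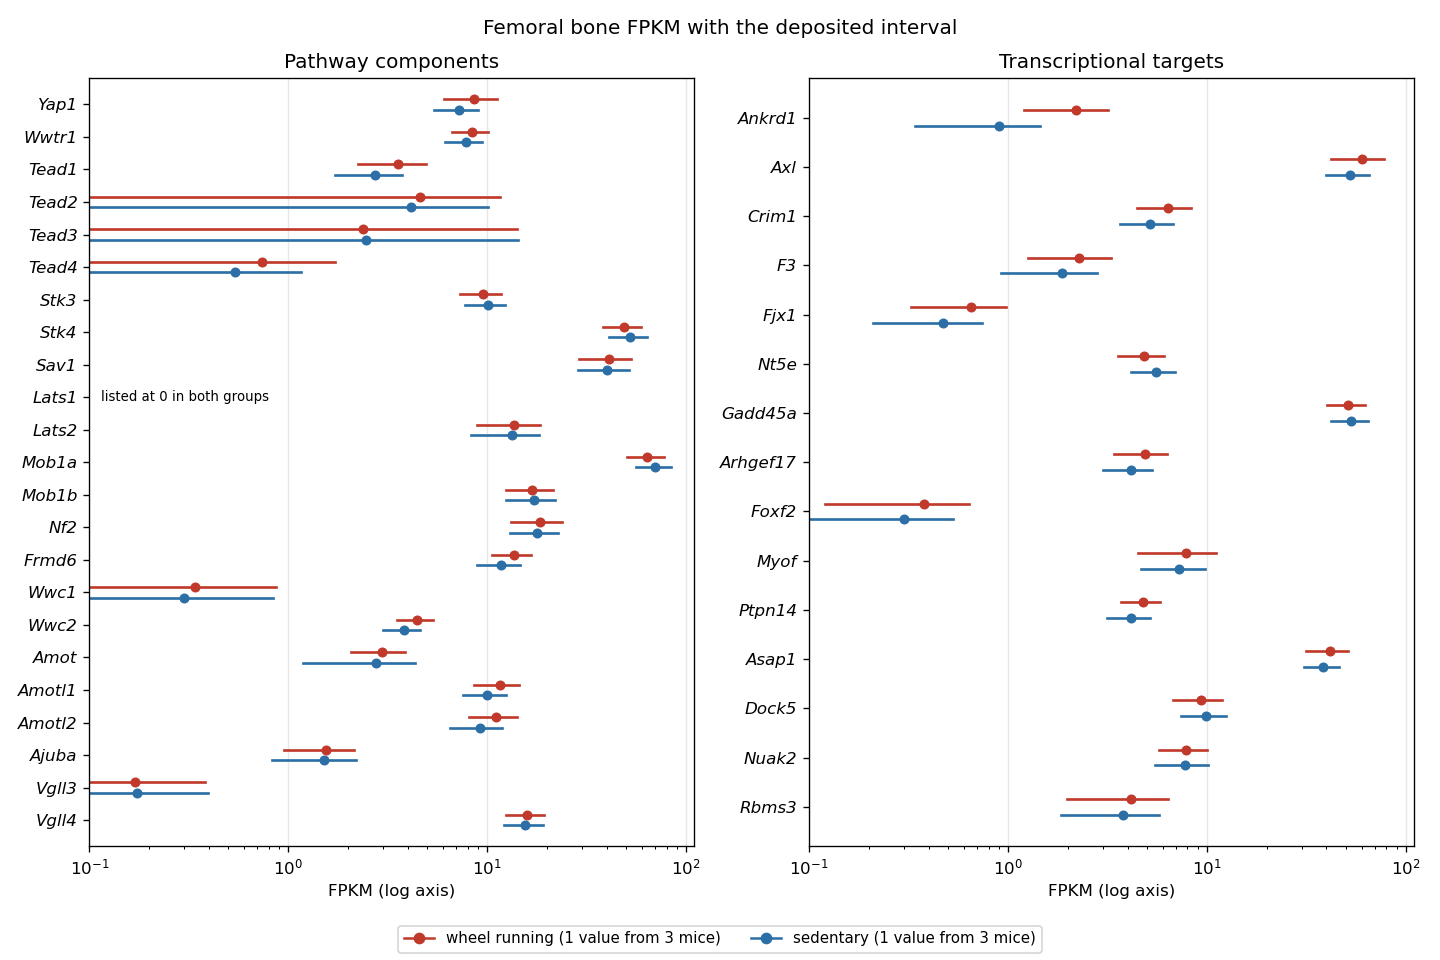
FPKM (log axis) of the 23 pathway components and the 15 targets in wheel running mice (upper point of each pair) and sedentary mice (lower point), each point 1 value from 3 mice; lines span the deposited interval, and lines that reach the left edge continue to the lower bound, which is 0 or under 0.1. The points of Ankrd1 lie farthest apart, at 2.19 and 0.899 FPKM, yet its lines still overlap.

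Ankrd1 encodes a nuclear ankyrin repeat protein that is also expressed in striated muscle and is widely used as a readout of YAP activity. Ankrd1 (ENSMUSG00000024803; chromosome 19, 36111961 to 36120099, minus strand, GRCm38) stood at 2.19 FPKM (interval 1.20 to 3.19) in running mice and at 0.899 FPKM (0.341 to 1.46) in sedentary mice. The running value was 2.44-fold the sedentary one, a log2 fold of 1.20, and the deposited bounds taken at their extremes allow a ratio anywhere from 0.823 to 9.35. In the authors' deposited table its log2 fold was 1.29, its p was 5e-05 and its q 0.00718, the smallest that table holds and shared by 108 genes. At this level Ankrd1 lies in the lower part of the tested genes, above 18.1% of them. None of its 50-base stretches is shared with transcripts of another gene in GENCODE vM21.

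Of 12 skeletal muscle marker genes in the same libraries, 3 (Myh1, Myh2 and Tcap) were called higher, against 0.445% of all tested genes. All 12 had a positive log2 fold, against 48.2% of all tested genes, with a median of 0.32. Their summed level was 2028 FPKM in running mice and 1656 FPKM in sedentary mice, and no marker of the list was at 0. The sums include Acta1, with loose intervals of 0 to 738 FPKM in running and 0 to 621 FPKM in sedentary mice. The marker lists used here and below were chosen with earlier results of these data known, so their counts are no independent evidence of direction. The part of the muscle genes in the Ankrd1 value was not tested. Since this is RNA of a whole tissue, a change in the number of cells of a type and a change in RNA per cell cannot be told apart.

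The promoter of Ankrd1 holds the TEAD recognition motif more than once, and so the sites are shown here together with those of the other targets, of both coactivators and of Amotl2 and Lats2, components that are also YAP targets. The motif is CATTCC, searched on both strands, where it reads GGAATG on the opposite one, in the RefSeq windows (GRCm38.p6) of 250 bases before to 50 after the start of each gene. Each line gives 10 bases on either side, 5′ to 3′ on the strand of the gene, with the motif in capitals.
Ankrd1, 210 bases before the start: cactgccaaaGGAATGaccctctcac
Ankrd1, 123 bases before the start: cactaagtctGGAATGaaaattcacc
Axl, 233 bases before the start: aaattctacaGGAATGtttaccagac
Crim1, 79 bases before the start: ggcgggggggGGAATGaggtaggatg
Ptpn14, 146 bases before the start: tccccggacgCATTCCtggcccgccc
Amotl2, 65 bases before the start: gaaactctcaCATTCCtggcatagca
Lats2, 5 bases after the start: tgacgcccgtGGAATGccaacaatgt
Yap1, 141 bases before the start: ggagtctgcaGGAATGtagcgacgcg
Wwtr1, 170 bases before the start: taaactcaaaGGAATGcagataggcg

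The Ankrd1 sites lie at chr19:36120039-36120064 and chr19:36119952-36119977 on GRCm38, and both motifs overlap an exon of Ankrd1 in GENCODE vM21. In that annotation the gene starts farther upstream than the RefSeq start used here. The Amotl2 and Lats2 sites also lie in exons of their genes, and the sites of Axl, Crim1, Ptpn14, Yap1 and Wwtr1 do not. The Wwtr1 site is counted from the start farther from it, and it lies 136 bases before the other RefSeq start. Windows were found for 30 of the 38 members, and 15 of these 30 genes held the motif in at least 1 window. Of all 27025 genes with a window 16.6% held it, and of the 10923 tested genes with a window 14.3%. By class, 11 of 20 components and 4 of 10 targets held the motif, so within the members it was not more frequent among the targets. Sites were also found for Ajuba, Mob1a, Sav1, Tead3, Vgll3, Vgll4 and Wwc2, with 4 sites in Tead3, 3 in Wwc2 and 2 in Ajuba. The median GC content of the windows was 66.5% for the members, 60.0% for the tested genes and 52.7% for all windows. With the longer motif ACATTCC 7 member genes held a match (23.3%, against 4.47% of all genes with a window). A match in the letters does not show that TEAD binds there.

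None of the other targets was called, and most had slightly higher values in running mice. Of the 14 tested targets, 11 had a positive log2 fold, and the median was 0.16, against -0.01 over all tested genes, of which 48.2% were positive. The next largest target folds were those of Fjx1, Crim1 and F3. Fjx1, which encodes a four-jointed family kinase of the Golgi, stood at 0.655 FPKM (interval 0.326 to 0.984) in running mice and 0.474 FPKM (0.209 to 0.740) in sedentary mice, a log2 fold of 0.39. Crim1, a transmembrane protein that binds BMPs, had 6.39 FPKM (4.47 to 8.31) in running mice and 5.20 FPKM (3.67 to 6.73) in sedentary mice, with an unadjusted p of 0.0669 in the authors' deposited table. F3, tissue factor, the starter of blood clotting, had 2.28 FPKM in running mice and 1.87 FPKM in sedentary mice. For all 3 of these genes the interval of each group contained the value of the other group.

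Among the targets with higher levels, Axl led, with 60.2 FPKM (42.3 to 78.1) in running mice and 52.7 FPKM (39.6 to 65.8) in sedentary mice. Axl encodes a receptor tyrosine kinase whose ligand is GAS6. Gas6, a gene outside the 38 members that is also listed elsewhere as a YAP target, was called higher, at 125 FPKM in running mice and 95.9 FPKM in sedentary mice (q = 0.0283 in the authors' deposited table), while Axl was not called (unadjusted p = 0.156). Whether the ligand and its receptor differed in their response was not tested. Asap1, which activates the GTPase activity of ARF proteins, stood at 41.5 FPKM in running mice and 38.5 FPKM in sedentary mice.

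Of the targets between 3 and 10 FPKM, Arhgef17, a guanine nucleotide exchange factor, had 4.87 FPKM in running mice and 4.16 FPKM in sedentary mice, and Ptpn14, a phosphatase that also binds YAP, had 4.79 and 4.17 FPKM in running and sedentary mice. Rbms3, an RNA-binding protein, was at 4.17 FPKM in running mice and 3.79 FPKM in sedentary mice. Myof, the membrane repair protein myoferlin, was at 7.84 FPKM in running mice and 7.26 FPKM in sedentary mice. Nuak2, a kinase related to AMPK, was nearly equal, at 7.91 FPKM in running mice and 7.81 FPKM in sedentary mice. These 5 values differed by far less than the width of their intervals.

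The 3 tested targets with a negative log2 fold were Nt5e, Dock5 and Gadd45a. Nt5e, the ectoenzyme CD73 that makes adenosine, had the lowest fold of any tested member, -0.20, at 4.84 FPKM (3.59 to 6.09) in running mice and 5.56 FPKM (4.18 to 6.94) in sedentary mice. Dock5, a Rac exchange factor needed by osteoclasts, had 9.34 FPKM in running mice and 9.95 FPKM in sedentary mice. Gadd45a, a stress and DNA damage response gene, had 51.1 FPKM in running mice and 53.2 FPKM in sedentary mice, and 19.1% of its exon bases overlap E230016M11Rik on the opposite strand. Foxf2, a forkhead factor of mesenchyme, was not tested by the authors and stood at 0.380 FPKM in running mice and 0.301 FPKM in sedentary mice.

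**Figure D2:**
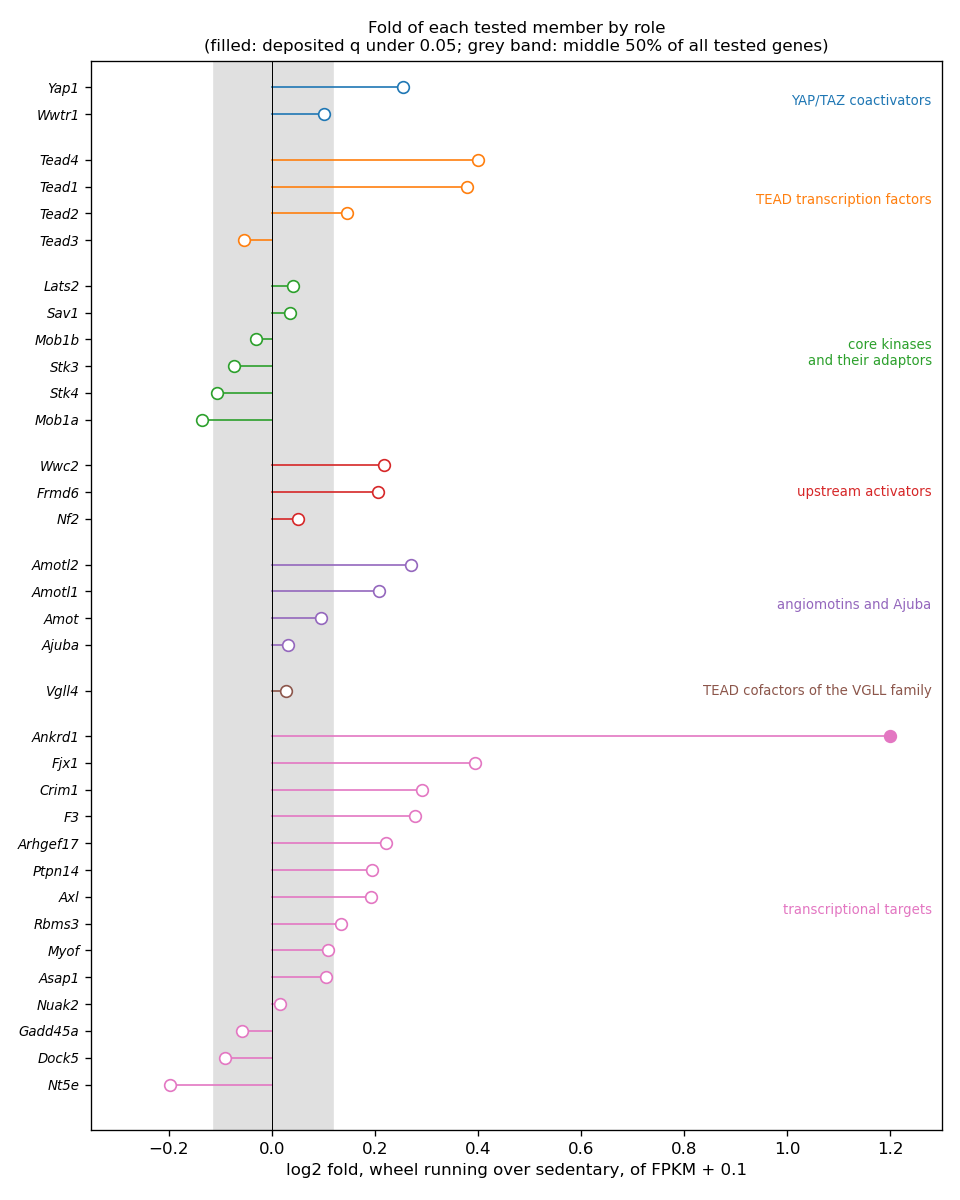
Log2 fold of FPKM + 0.1, running over sedentary (horizontal axis), of the 34 tested members grouped by role; the filled point has a deposited q under 0.05 and the grey band is the middle 50% of all tested genes. Ankrd1 at 1.20 stands apart from the other 33 members, which lie between -0.20 and 0.40.

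The coactivators and their DNA-binding partners were measured at low to middle levels. Yap1 (chromosome 9, 7931999 to 8004596) stood at 8.62 FPKM (interval 6.04 to 11.2) in running mice and 7.20 FPKM (5.39 to 9.01) in sedentary mice, a log2 fold of 0.26. Its unadjusted p in the authors' deposited table was 0.0588 and its q 0.934. Wwtr1, which encodes TAZ, had 8.38 FPKM (6.64 to 10.1) in running mice and 7.81 FPKM (6.17 to 9.45) in sedentary mice, so that the pair was present at about equal levels per length in either group.

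Among the TEAD genes, Tead1 came closest to a call. Tead1 (chromosome 7, 112679318 to 112906807) had 3.57 FPKM (2.25 to 4.90) in running mice and 2.73 FPKM (1.72 to 3.73) in sedentary mice, a log2 fold of 0.38 with an unadjusted p of 0.0289 and a q of 0.720 in the authors' deposited table. Tead2 was estimated at 4.58 FPKM in running mice and 4.13 FPKM in sedentary mice and Tead3 at 2.38 and 2.47 FPKM in running and sedentary mice. These 2 estimates are loose, since the lower bounds were 0 and the upper bounds 11.6 FPKM in running and 10.1 FPKM in sedentary mice for Tead2, and 14.1 and 14.3 FPKM in running and sedentary mice for Tead3. Tead4 had the lowest estimate, at 0.742 FPKM (0 to 1.72) in running mice and 0.537 FPKM (0 to 1.16) in sedentary mice. Over the 4 TEAD genes the sum was 11.3 FPKM in running mice and 9.86 FPKM in sedentary mice, and with such intervals Tead2 and Tead3 cannot be placed in an order with Tead1 and Tead4 by level.

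None of the core kinases and their adaptors was called or had an unadjusted p under 0.05 in the authors' deposited table. Of all tested genes, 0.941% were called, 5.65% had such a p and 48.2% had a positive log2 fold. With 6 tested genes, such counts say little about the group. Of the 6 tested, 2 had a positive log2 fold and 4 a negative one, with a median of -0.05; with both groups scaled to the same total FPKM Mob1b turned positive and 3 were positive. Stk4 and Mob1a were the most abundant of this group. Stk4, the kinase MST1, which is prominent in blood cells, had 48.8 FPKM in running mice and 52.5 FPKM in sedentary mice, and it made up 83.6% of the summed level of the 2 MST kinases in running and 83.9% in sedentary mice. Stk3, the kinase MST2, had 9.55 FPKM in running mice and 10.05 FPKM in sedentary mice. Mob1a, an activating subunit of the LATS kinases, had 63.7 FPKM (50.3 to 77.0) in running mice and 69.9 FPKM (55.9 to 84.0) in sedentary mice, the lowest log2 fold of the components, -0.14, and its close relative Mob1b had 16.9 FPKM in running mice and 17.2 FPKM in sedentary mice. Sav1 stood at 41.0 FPKM in running mice and 40.0 FPKM in sedentary mice, and 25.4% of its exon bases overlap Atl1 on the opposite strand. Beside these values, all 10 neutrophil marker genes had a negative log2 fold, where 48.2% of all tested genes had a positive one. Their median was -0.17, and their summed level was 44925 FPKM in running mice and 52892 FPKM in sedentary mice. None of the 10 was called, against 0.941% of all tested genes. None had an unadjusted p under 0.05 in the authors' deposited table, against 5.65%, and none of these neutrophil genes was at 0. Their part in the kinase values was not tested.

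The LATS kinases are the least well measured step of the core. Lats2, which is both a pathway kinase and a YAP target, had 13.7 FPKM (8.87 to 18.5) in running mice and 13.3 FPKM (8.24 to 18.3) in sedentary mice. It shares 42.4% of its exon bases with the annotated gene Gm49361 on the same strand. Gm49361 is listed at 0 in both groups, so no level was assigned to it, although fragments of the shared bases fit either gene. Lats1 (chromosome 10, 7681214 to 7716460) is listed at 0 in both groups and was not tested. The protein-coding genes on either side of Lats1 are listed near 0 too: Lrp11, Pcmt1 and Nup43 before it at 0 in both groups, and Katna1 after it at 0 in running mice and 0.0940 FPKM in sedentary mice. NUP43 is a subunit of the nuclear pore, which every nucleated cell uses, so the 0 of Lats1 cannot be read as absence of the transcript. The next gene, Ginm1, stood at 15.4 FPKM in running mice and 11.3 FPKM in sedentary mice.

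Upstream activators and angiomotins had small positive folds throughout. Nf2, the membrane-linked tumour suppressor merlin, had 18.5 FPKM in running mice and 17.8 FPKM in sedentary mice. Frmd6, a FERM domain protein, had 13.6 FPKM (10.6 to 16.5) in running mice and 11.7 FPKM (8.88 to 14.6) in sedentary mice, a log2 fold of 0.21, with 13.1% of its 50-base stretches shared with Gm5780. Wwc2, a relative of the scaffold KIBRA, had 4.44 FPKM (3.51 to 5.36) in running mice and 3.80 FPKM (2.99 to 4.61) in sedentary mice, with an unadjusted p of 0.0692 in the authors' deposited table. Wwc1, which encodes KIBRA itself, was not tested and stood at 0.339 FPKM in running mice and 0.299 FPKM in sedentary mice.

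The angiomotins, which tether YAP at junctions and actin, followed the same pattern. Amotl2 (chromosome 9, 102716672 to 102733418), which is also a YAP target, had 11.1 FPKM (8.12 to 14.0) in running mice and 9.17 FPKM (6.53 to 11.8) in sedentary mice, a log2 fold of 0.27, with an unadjusted p of 0.0477 and a q of 0.876 in the authors' deposited table. Amotl1 had 11.6 FPKM (8.60 to 14.5) in running mice and 9.99 FPKM (7.56 to 12.4) in sedentary mice, a log2 fold of 0.21. Amot was lower, at 2.97 FPKM in running mice and 2.77 FPKM in sedentary mice. The sum of the 3 was 25.6 FPKM in running mice and 21.9 FPKM in sedentary mice. Ajuba, a LIM protein that inhibits LATS, stood at 1.55 FPKM in running mice and 1.51 FPKM in sedentary mice.

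Of the VGLL cofactors, Vgll4, which competes with YAP for TEAD, had 15.9 FPKM in running mice and 15.6 FPKM in sedentary mice. Vgll3 was not tested and stood at 0.170 FPKM in running mice and 0.174 FPKM in sedentary mice.

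Set against each other, 15 of 20 tested components had a positive log2 fold with a median of 0.07, and 11 of 14 tested targets had one with a median of 0.16. No component was called by the authors' Cuffdiff-type test at q under 0.05, and 2 (Tead1 and Amotl2) had an unadjusted p under 0.05. Among the targets 1 was called and the same gene, Ankrd1, was the 1 with an unadjusted p under 0.05. Of all tested genes, 0.941% were called and 5.65% had an unadjusted p under 0.05 in that test, so such small counts do not set the classes apart. The middle 50% of the components ran from 0.01 to 0.21 and that of the targets from 0.04 to 0.26, so the classes overlapped widely. Among members of at least 5 FPKM the medians were 0.042 for components and 0.061 for targets. The difference between the classes was not tested. The ranges of level overlapped too, with components up to 69.9 FPKM and targets up to 60.2 FPKM in the group where each was higher. Typical levels of the classes were not compared.

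**Figure D3:**
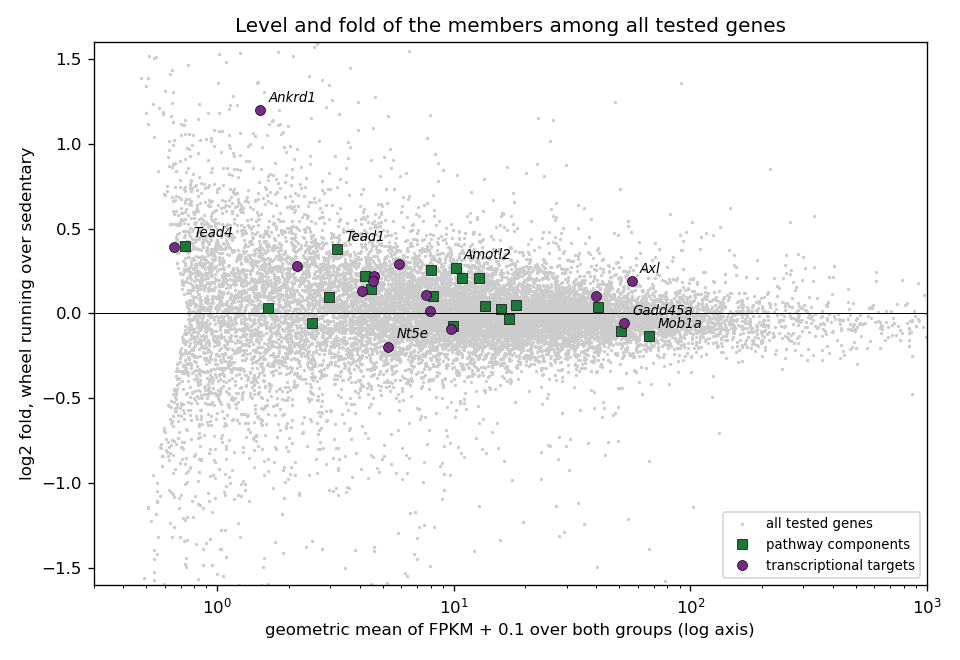
Log2 fold, running over sedentary (vertical axis), against the geometric mean of FPKM + 0.1 over both groups (log axis) for the members and, in grey, all tested genes; genes outside the drawn range are not shown. The grey cloud widens toward low levels, where Ankrd1, Tead4 (0.40) and Tead1 (0.38) lie, while Mob1a (-0.14) lies at the high end.

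Further genes of the pathway held no call. Of 40 further Hippo pathway genes listed, 39 were found and 35 tested. None was called by the authors' Cuffdiff-type test at q under 0.05, against 0.941% of all tested genes. In that test 5.65% of all tested genes had an unadjusted p under 0.05. The 1 with an unadjusted p under 0.05 in the authors' deposited table was Fat4, an atypical cadherin whose fly relative acts upstream of Hippo, with a log2 fold of 0.35 (p = 0.0069). The median log2 fold of the further pathway genes was -0.03, and 16 of 35 were positive, against 48.2% of all tested genes. With both groups scaled to the same total FPKM the median was 0.02 and 20 of 35 were positive. Whether they differed from the members was not tested. Those with the largest folds at a level of at least 1 FPKM were Patj, a polarity scaffold (1.55 FPKM in running and 0.943 in sedentary mice), Wtip, a relative of Ajuba (5.12 FPKM in running and 3.84 in sedentary mice), Fat4, and Dchs1, a cadherin partner of Fat4 (1.66 FPKM in running and 1.32 in sedentary mice). The Patj estimates are loose, with intervals of 0.444 to 2.66 FPKM in running and 0.0337 to 1.85 FPKM in sedentary mice.

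Further YAP targets, which include the CCN genes, held 3 calls. Of 35 listed, 34 were tested, 3 were called higher, against 0.445% of all tested genes, and none lower. A positive log2 fold was found for 28 of 34, against 48.2% of all tested genes, with a median of 0.16. These genes were listed with results of the same libraries already known, so the count is no independent evidence of direction. The calls were Ccn1 at 114 FPKM in running mice and 81.3 FPKM in sedentary mice, Igfbp3, a binding protein of insulin-like growth factors, at 19.3 FPKM in running mice and 13.6 FPKM in sedentary mice, and Gas6. Ccn2 was not called, at 104 FPKM in running mice and 80.1 FPKM in sedentary mice (q = 0.0798 in the authors' deposited table). The largest uncalled folds were those of Fgf2 (1.24 FPKM in running and 0.555 in sedentary mice), Tns1, the focal adhesion protein tensin (31.9 and 21.4 FPKM in running and sedentary mice), Tgfb2 (3.89 and 2.61 FPKM in running and sedentary mice) and Ccdc80, a matrix protein (41.1 and 30.8 FPKM in running and sedentary mice). The Fgf2 estimates are loose, with intervals of 0.0688 to 2.42 FPKM in running and 0 to 1.54 FPKM in sedentary mice. In the authors' deposited table, 11 of the further targets were higher at an unadjusted p under 0.05, against 3.42% of all tested genes. Thbs1 was the 1 that was lower, at 107 FPKM in running mice and 126 FPKM in sedentary mice.

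Marker genes of other cells that a femur holds were read in the same libraries, and some of them were called. These lists too were chosen with earlier results of the data known. Of all tested genes, 0.941% were called, 5.65% had an unadjusted p under 0.05 in the authors' test and 48.2% had a positive log2 fold. Positive log2 folds were seen in 6 of 7 tested osteocyte genes (median 0.25), 7 of 7 tested adipocyte genes (0.62), 9 of 10 tendon, periosteum and fibroblast genes (0.42), 5 of 5 marrow stroma genes (0.18) and 5 of 7 endothelial genes (0.15). The calls were Sost and Mepe higher and Fgf23 lower among the osteocyte genes, and, all higher, Adipoq, Fabp4, Cfd and Pck1 of fat, Thbs4, Tnxb, Fmod and Cilp of tendon and fibroblasts, and Lepr of stroma; no endothelial gene was called by the authors' Cuffdiff-type test, and 1 had an unadjusted p under 0.05. Summed levels in running and sedentary mice were 433 and 344 FPKM for osteocyte, 455 and 308 FPKM for adipocyte, 230 and 190 FPKM for tendon and fibroblast, 1056 and 926 FPKM for stroma and 172 and 164 FPKM for endothelial genes. The tendon, periosteum and fibroblast genes were not uniformly raised. Pi16 was lower, with a log2 fold of -0.29 (unadjusted p = 0.028 in the authors' deposited table). Tnmd was nearly equal, with a log2 fold of 0.02. Postn, Dpt, Comp and Scx were higher without a call, and the Scx intervals began at 0 in both groups. Dmp1, a defining osteocyte gene, stood at 169 FPKM in running mice and 145 FPKM in sedentary mice. Pdpn was listed at 0 in both groups, as were 22.1% of all protein-coding genes. Whether this 0 reflects absence of the transcript was not tested. The medians of all 5 lists were above that of the Hippo components, and those of all but the endothelial list were above that of the targets. The part of these cells in the members' values was not tested.

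**Figure D4:**
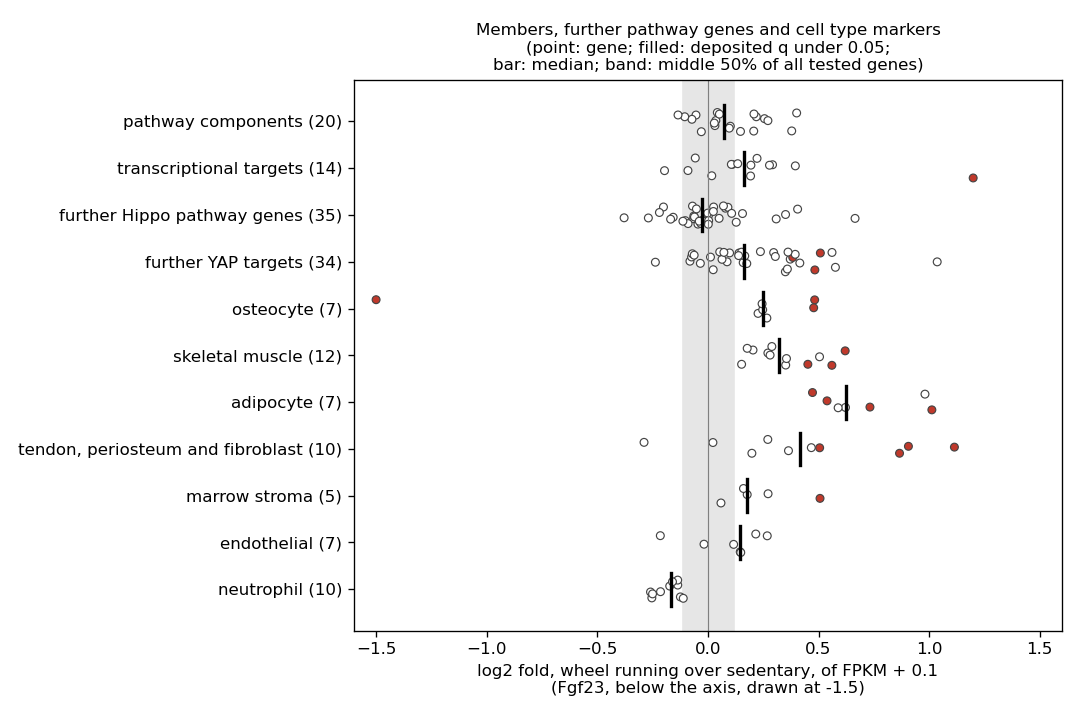
Log2 fold of FPKM + 0.1, running over sedentary (horizontal axis), of each tested gene (point) in the members, the further pathway and target lists and 7 cell type marker lists; filled points have a deposited q under 0.05, bars are medians and the band is the middle 50% of all tested genes. The bars of the components (0.07) and targets (0.16) lie between those of the neutrophil (-0.17) and adipocyte (0.62) lists.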

How the data were processed

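Libraries came from femoral RNA with a kit that marks strand, per the labels' protocols. Build GRCm38 and the tools Cufflinks 2.2.1, SAMtools 1.10, HISAT2 2.2.1 and Trimmomatic 0.39 appear, without roles, in the submitters' processing notes. Per the file headers, the tables have the layout of Cuffdiff. For each gene the authors deposited an FPKM of either group with its interval bounds, a log2 fold, a test statistic (a score), a p-value and a q-value. The level of the intervals, library totals and the use of strand in counting are, in the sources used here, not given. There are 0 columns of single libraries, so no test between mice was made and the authors' q-value over all tested genes stands in its place. The design text gives 3 singly housed mice per group.

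Folds and medians were computed here with pandas 2.3.3 and numpy 2.4.6, and the code was tested on simulated folds, p-values and sequences. A pseudocount of 0.1 was added to each FPKM. Members and lists were chosen with earlier results of these data known. All members are named, with called genes and the 4 largest uncalled folds of the further lists. Coordinates come from GENCODE vM21 and promoter windows from RefSeq. A comparison of transcripts in stretches of 50 bases found at least 2% shared with another gene for 6 of 38 members, Lats2, Sav1, Gadd45a, Frmd6, Wwc2 and Foxf2. The planned protein identity between paralogs was not computed, since no protein sequences were used here.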

Additional observations from a re-analysis of the deposited data

How the results depend on the processing

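No paired analysis was possible because each group has 1 value per gene; for the same reason leaving out single mice was not run. The count of 1 called member stayed at 1 with q under 0.01, q under 0.1, q recomputed over genes of at least 1 FPKM, and a further minimum on the test statistic. It was 3 at an unadjusted p under 0.05, and 0 when q under 0.05 and separate intervals were both required. No member had intervals apart, and 1, Ankrd1, had them apart when the intervals were narrowed to 1/2 of their width, against 3.06% of all tested genes. Medians moved by more than 0.05 only with members of at least 5 FPKM, to 0.042 from 0.11 over all tested members and to 0.061 from 0.16 over the targets; the setting keeps fewer genes. Without Ankrd1 the target median was 0.13, and with Lats2 and Amotl2 0.16. Of 136 alternative folds of single members 1 changed sign, that of Mob1b, to 0.013 from -0.03 at the same total FPKM, a scaling that raised folds by 0.04. The count of 15 members with the TEAD motif was 7 with ACATTCC and 8 on the strand of the gene only, both stricter searches. Low levels limit Tead4, Fjx1, Wwc1, Foxf2 and Vgll3, and also Ankrd1, which stood at 0.899 FPKM in sedentary mice. The log2 fold of Ankrd1 fell to 0.75 from 1.20 when 1 instead of 0.1 was added to each FPKM. It was slightly higher than in the main setting at each other setting, so its sign held but its size depends on the pseudocount.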
